A study of Danio rerio with 12 samples.

Results

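Digestive enzyme genes and the transcription factor gene ptf1a were followed in whole zebrafish embryos in which translation of the glucocorticoid receptor (GR) had been blocked. The set named 8 genes: amy2al2, ela2, ela2l, ela3l, cpa5, ctrb1, prss1 and ptf1a. A gene was measured through array probes whose transcript accession led to its symbol in the zebrafish reference, and where several probes did, one was chosen by its mean log2 intensity over the 12 arrays, the highest being kept. That value does not use the groups, but the genes themselves were selected with the changes between groups known, so that the tests below describe them and are no independent evidence. That rule found a probe for 6 of the 8 genes, among 10917 named genes with a probe. No probe matched ela2 or ela2l, which lie next to each other in the reference, and neither gene was analysed here.

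Embryos had been injected at the single-cell stage with 4.4 ng in 1 nL of a morpholino (MO), an antisense oligonucleotide designed against the translation start of the GR transcript, or with the same amount of a mispair control (MP) carrying changed bases. Pools of 25 embryos were frozen at 24 or 36 hours post fertilization (hpf), and RNA of whole homogenized embryos was labelled from 0.2 µg and hybridized to one-colour Agilent arrays, with 3 arrays in each of the 4 groups (MO and MP at 24 hpf, MO and MP at 36 hpf). The 3 replicates came from separate breeding events on different days. The morpholino blocks translation and not transcription, so the amount of GR mRNA cannot serve to check which arrays were MO.

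The morpholino is shown because every comparison rests on it. It reads 5′ to 3′ as follows, with the bases complementary to a start codon in capitals.
GR morpholino: ctccagtcctccttgatcCATtttg
The labels print these same 25 letters for the mispair control as well, so the changed bases of MP are not given in them. The paper does print a sequence for MP, with its altered bases in small letters. Apart from those bases, that sequence does not match the letters shown here.

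The exocrine pancreas makes the enzymes that digest starch, protein and fat. Amylase (amy2al2) splits starch, trypsin (prss1) and chymotrypsin (ctrb1) cut proteins internally as does elastase (ela3l), and carboxypeptidase A (cpa5) trims them from the end. These proteases are made as inactive precursors. The bHLH factor Ptf1a is needed for the exocrine lineage, and ptf1a is also expressed outside the pancreas, in progenitors of inhibitory neurons in the hindbrain and retina. In whole embryos, fewer cells of a type and less RNA per cell cannot be told apart.

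Levels are given as log2 normalized expression, which is the log2 of the scanner's background-corrected intensity divided by the array's median over 19114 probes that were above 50 on all 12 arrays. A value of 0 therefore stands for that median, and levels are compared within a gene and not between genes. A probe was called well above background on an array by the scanner software's own test. Arrays had between 65.9% and 82.5% of their probes well above background and median intensities between 35.5 and 171, and the MO arrays at 36 hpf had the lowest shares, 65.9% to 70.7%. The MO array of replicate 2 at 36 hpf was the dimmest, with a median intensity of 35.5. Each slide held 1 MO and 1 MP array, but the 2 time points were on different slides and in different scan sessions, so time and slide cannot be told apart.

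The probes for ela3l, ctrb1, prss1 and ptf1a were well above background on all 12 arrays. The amy2al2 probe was well above background on 6 arrays, which were the 6 MO arrays. The cpa5 probe reached this level on 4 arrays. None of the 6 probes was saturated on any array.

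**Figure D1:**
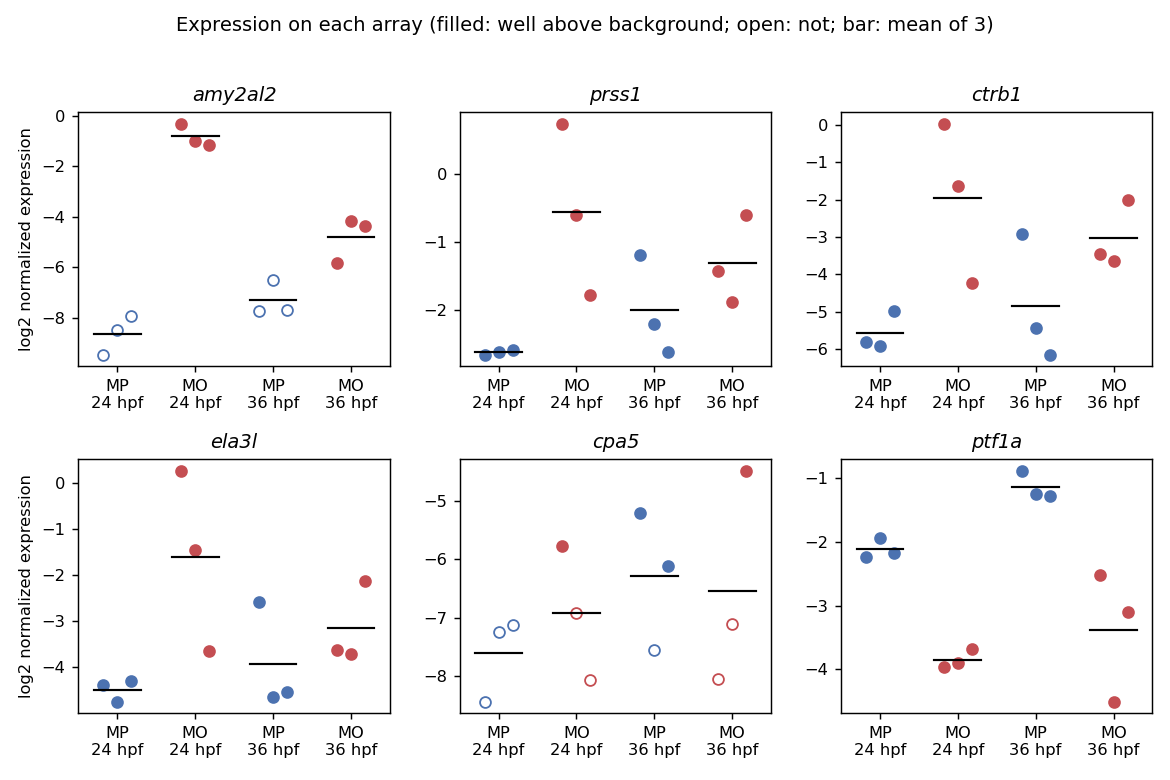
Log2 normalized expression (y axis) of the 6 measured genes on each of the 12 arrays, by group (x axis, MP in blue and MO in red). Filled points were well above background, open points were not, and bars are means of 3 arrays; amy2al2 is filled on the MO arrays and open on the MP arrays, while ptf1a lies lower in MO at both times.

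The amylase gene amy2al2 was bright in MO and at the background in MP at 24 hpf. There the amy2al2 probe had intensities of 1080, 598.2 and 600.1 in MO replicates 1, 2 and 3. The MP intensities were 2.28, 3.98 and 5.08, none of them well above background. All 3 MO arrays thus lay far above all 3 MP arrays. In log2 normalized expression the MO arrays gave -0.31, -0.98 and -1.14, a mean of -0.81 ± 0.44 (SD, n = 3), against -8.63 ± 0.77 in MP. Directions here run from MP to MO as the labels name the arrays, and they oppose the directions in the study's own text. For example, psme1 had a log2 change of 3.61 at 24 hpf, and the paper lists it as downregulated at that time. The paper reports that qPCR of selected genes in separate MO and MP pools, at the later time, matched its array directions. Whether the labels or the paper's directions are right was not tested. Every rise or fall given here holds only if the labels are right. The increase of amy2al2 amounted to 7.82 on the log2 scale (SE 0.38, adjusted p = 2.5e-06 by limma with Benjamini-Hochberg adjustment), in a fit of 10355 named genes. Because the MP probe was not well above background, the change is also given as a ratio of the MO mean to a detection level. This ratio was 103-fold for amy2al2. On each MP array the detection level was the higher of the probe's own signal and the lowest signal among probes well above background. The ratio leaves out the spread between arrays and is not a strict lower limit. The probe entered the test through its MO arrays alone. Its fitted change depends on how dim spots are treated, and was 3.51 with the floor of 0.05 set after scaling and 3.53 with normexp background correction (adjusted p = 0.000878 and 2.71e-08).

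At 36 hpf the difference was smaller and rested on dim spots. The MO intensities were 19.49, 19.01 and 36.58 and the MP intensities 8.31, 8.62 and 7.01, again none of the latter well above background. The groups did not overlap. The means were -4.79 ± 0.92 in MO and -7.31 ± 0.68 in MP (SD, n = 3). They differ by 2.52 on the log2 scale (SE 0.55, adjusted p = 0.0403 by limma). The ratio to the detection level was 4.04-fold. The probe again entered the test through its MO arrays alone. Within slides the MO minus MP differences were 0.67, 3.55 and 3.32, and with slide as a block the adjusted p was 0.102. The call was also lost when MO replicate 3 or any 1 of the 3 MP arrays was left out (adjusted p of 0.0929 to 0.148), and on a scale set by the positive control spots the log2 change was 1.34 (adjusted p = 0.137). With normexp correction it was 0.85 (adjusted p = 0.0637), and with the floor set after scaling, which raises most of these spots to it, 0.052 (adjusted p = 0.585).

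Over time, amy2al2 in MO embryos went from -0.81 at 24 hpf to -4.79 at 36 hpf, a log2 change of -3.98 (SE 0.52, adjusted p = 0.000588). The 3 MO arrays at 36 hpf lay below the 3 at 24 hpf. In MP the probe was not well above background at either time, and the change was not tested. The fitted MO to MP difference was smaller at 36 than at 24 hpf (interaction -5.31 on the log2 scale, SE 0.74, adjusted p = 0.00512 by limma). That fit shares its arrays with the comparisons above. Because the MP probe was not well above background at either time, neither the size nor the direction of this interaction is fixed by the data. Only the fall in MO rests on arrays where the probe was well above background. With slide as a block the interaction had an adjusted p of 0.0632, and with normexp correction it was -2.68 (adjusted p = 0.000973) and the change over time in MO -2.45 (adjusted p = 5.1e-05).

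A second amylase probe, that of amy2a, was well above background on all 12 arrays and behaved differently from amy2al2. Its MO values at 24 hpf were 0.65, -0.14 and -0.60, and its MP values -0.63, -0.57 and -0.62. Only MO replicates 1 and 2 stood clear of the MP arrays, and the log2 change of 0.58 (SE 0.26, adjusted p = 0.0965) did not pass. At 36 hpf it was 0.53 (SE 0.37, adjusted p = 0.452).

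The proteases ctrb1, ela3l and prss1 were higher in MO at 24 hpf, with a wide spread among the MO arrays. For chymotrypsin (ctrb1), MO gave 0.03, -1.64 and -4.23 and MP gave -5.80, -5.91 and -4.99. Every MO array lay above every MP array, but MO replicate 3 was within 0.75 of the MP array on its own slide. The rise came to 3.62 on the log2 scale (SE 0.87, adjusted p = 0.00863). For ela3l, MO gave 0.25, -1.46 and -3.64 and MP gave -4.39, -4.75 and -4.30, and the rise was 2.86 (SE 0.78, adjusted p = 0.0149). For trypsin (prss1), MO gave 0.74, -0.61 and -1.78 and MP gave -2.65, -2.62 and -2.59, with a rise of 2.07 (SE 0.50, adjusted p = 0.00907). In each of the 3 genes the MO arrays took the same order, with replicate 1 highest and replicate 3 lowest, and the SD in MO (2.15, 1.95 and 1.26) was several times that in MP (0.51, 0.24 and 0.03).

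The size of these rises depended on single arrays. Within the 3 slides the ctrb1 difference was 5.94, 4.17 and 0.75, that of ela3l 5, 2.93 and 0.66, and that of prss1 3.35, 2.05 and 0.80. Without MO replicate 1 the log2 changes were 2.63, 1.93 and 1.42. The ela3l call was lost without MO replicate 2 (log2 change 2.79, adjusted p = 0.0536). With slide as a block the 3 adjusted p values were between 0.00431 and 0.00957. With the floor set after scaling the log2 changes of ctrb1, ela3l and prss1 were 2.38, 2.70 and 2.07, and the calls were lost (adjusted p of 0.162, 0.0979 and 0.0634).

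The ela3l probes disagreed. A second probe followed the first, with a log2 change of 3.31 (SE 0.88, adjusted p = 0.0161 over all 35338 probes tested). The remaining probe, which was dimmer, gave -5.12, -6.11 and -5.79 in MO and -5.93, -5.83 and -5.87 in MP at 24 hpf, where it was well above background on all 6 arrays. Its groups overlapped, and its log2 change was 0.20 (SE 0.27, adjusted p = 0.571). What this dimmer probe binds was not tested.

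At 36 hpf the 3 protease genes overlapped between MO and MP and none passed the test. For ctrb1, MO gave -3.46, -3.65 and -2.01 and MP gave -2.93, -5.43 and -6.15. The MP array of replicate 1 lay inside the MO range while the other two MP arrays lay below it. The log2 changes were 1.80 (SE 0.82, adjusted p = 0.259) for ctrb1, 0.77 (SE 0.65, adjusted p = 0.535) for ela3l and 0.70 (SE 0.45, adjusted p = 0.421) for prss1. On the slide that held MO replicate 2 and MP replicate 1 the 3 differences were negative (-0.72, -1.13 and -0.70), and on the other two slides they were positive. Scaled to the positive control spots, which moved the median of all genes at 36 hpf to -1.14, the changes of ela3l and prss1 turned to -0.41 and -0.48.

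**Figure D2:**
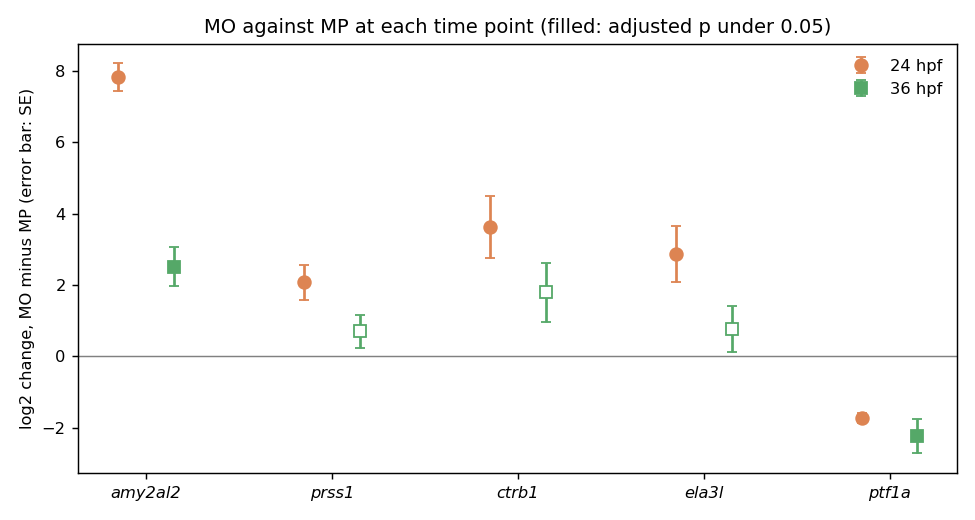
Log2 change of MO against MP (y axis) for the 5 genes tested at 24 hpf (circles) and 36 hpf (squares), with SE as error bars and filled symbols for an adjusted p under 0.05. The enzyme genes lie above 0 and ptf1a below it, but at 36 hpf ela3l and prss1 fall to -0.41 and -0.48 on a scale set by the positive control spots.

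These 3 genes moved together from array to array, along with ctrl and a liver gene. Across the 12 arrays and 10237 named genes, the gene most like ctrb1 was fabp10a, the liver fatty acid binding protein (Pearson r = 0.993), followed by prss1 (0.979) and ctrl, a chymotrypsin-like protease (0.976). For prss1 the closest were fabp10a (0.99), ctrb1 (0.979) and ela3l (0.976), and for ela3l they were prss1 (0.976), fabp10a (0.975) and ctrb1 (0.968). These points share arrays, slides and scaling, and the values are descriptive. High arrays were MO replicates 1 and 2 at 24 hpf, MO replicate 3 at 36 hpf and MP replicate 1 at 36 hpf.

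The liver gene followed the enzymes in size too. For fabp10a, MO gave 2.19, 0.33 and -2.33 at 24 hpf and MP gave -3.74, -3.95 and -3.19, a log2 change of 3.69 (SE 0.91, adjusted p = 0.00945). The groups did not overlap, and MO replicate 1 was again highest and replicate 3 lowest. At 36 hpf fabp10a overlapped between the groups, with a log2 change of 1.56 (SE 0.68, adjusted p = 0.236). Its MP replicate 1 at 36 hpf reached -1.34, above the other two MP arrays at -3.08 and -3.85. Of 8 listed liver genes 4 had a probe, each well above background on all 12 arrays, and at 24 hpf 1 rose (fabp10a) and 1 fell, rbp4, which encodes the plasma carrier of retinol (log2 change -2.08, SE 0.14, adjusted p = 1.2e-05). Over all genes tested at that time 24.3% were higher and 24% lower, so these counts lie near that share. The summed normalized level of the 4 liver genes ran from 6.73 to 12.5 in MO and from 19.1 to 23.2 in MP at 24 hpf. At 36 hpf it ran from 13.7 to 16.5 in MO and from 10.3 to 13.2 in MP. The brightest of the 4 genes on every array was rbp4, so the sum mostly follows rbp4 and not the list as a whole. The part of liver tissue in the enzyme values was not tested.

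**Figure D3:**
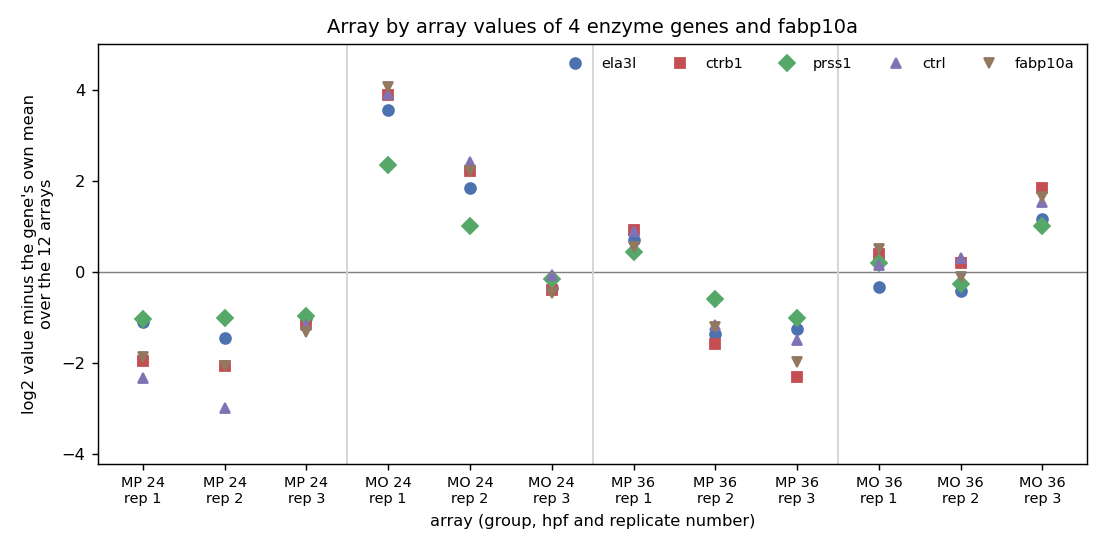
Log2 value of ela3l, ctrb1, prss1, ctrl and fabp10a on each array minus the gene's own mean over the 12 arrays (y axis), with arrays on the x axis by group, hpf and replicate. The 5 genes are high on MO replicates 1 and 2 at 24 hpf and on MO replicate 3 and MP replicate 1 at 36 hpf.

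Carboxypeptidase A (cpa5) lay near the background. Its probe was well above background on 1 of 3 MO and 0 of 3 MP arrays at 24 hpf, and on 1 of 3 MO and 2 of 3 MP arrays at 36 hpf, so no comparison was tested. Intensities ran from 2.46 to 47.31 over all arrays. The 4 arrays on which it was detected were MO replicate 1 at 24 hpf (24.38), MO replicate 3 at 36 hpf (33.92) and MP replicates 1 and 3 at 36 hpf (47.31 and 20.83). In zebrafish cpa5 is also a mast cell gene, and 3 of these 4 arrays are among those on which the other proteases were high. A second cpa5 probe was well above background only on MO replicate 1 at 24 hpf (16.67) and MP replicate 1 at 36 hpf (22.77). On MO replicate 3 at 36 hpf the second probe gave 4.99 and was not well above background.

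The transcription factor gene ptf1a went the other way from the enzymes. At 24 hpf the MO arrays gave -3.97, -3.91 and -3.68 and the MP arrays -2.23, -1.95 and -2.18. The 2 groups were tight and far apart. The means were -3.85 ± 0.15 and -2.12 ± 0.15 (SD, n = 3), so ptf1a fell by 1.74 on the log2 scale (SE 0.15, adjusted p = 3.56e-05). Within the slides the difference was -2.03, -1.68 and -1.50.

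At 36 hpf MO gave -2.52, -4.51 and -3.09 and MP gave -0.88, -1.25 and -1.28. The groups did not overlap, and the lowest value came from the dimmest array, MO replicate 2. The means were -3.38 ± 1.02 and -1.14 ± 0.22, a log2 change of -2.24 (SE 0.48, adjusted p = 0.038). The paper instead lists ptf1a as upregulated by GR knockdown at this time. Leaving out MO replicate 2 gave -1.67 (adjusted p = 0.00864). The call was lost without MO replicate 3 or any 1 MP array (adjusted p of 0.0978 to 0.138), and with slide as a block (adjusted p = 0.0788), where the within-slide differences were -1.27, -3.63 and -1.82.

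The ptf1a level in MP was -2.12 at 24 and -1.14 at 36 hpf without overlap, a change of 0.98 (SE 0.38, adjusted p = 0.0896). Without the dim MO replicate 2 at 36 hpf, which widens the spread that all groups share in this fit, the adjusted p was 0.00203. In MO the change was 0.48 (SE 0.39, adjusted p = 0.381). Without that array it was 1.05 (adjusted p = 0.0021), and with scaling to the positive control spots it was -1.13 (adjusted p = 0.0372), where the median of all genes lay at -1.69. The interaction was -0.50 (SE 0.54, adjusted p = 0.719), and 0.065 without MO replicate 2 at 36 hpf. The genes most like ptf1a across the 12 arrays were acadl, a mitochondrial acyl-CoA dehydrogenase gene (r = 0.991), kif3cb, a kinesin gene (0.989), and ppm1nb, a phosphatase gene (0.989). For amy2al2 they were hs3st1l2, which encodes a heparan sulfate sulfotransferase (0.989), gnrh2, a gonadotropin-releasing hormone gene (0.981), and psme1, a proteasome activator subunit gene (0.98). The MP values of amy2al2 that enter these r values were not well above background, and the r values are descriptive.

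Counted over the set, 5 of the 8 genes were tested at 24 hpf, of which 4 rose and 1 fell. At that time 48.3% of the 10355 named genes tested were called (24.3% higher and 24% lower in MO), and 59.7% had groups without overlap, as had each of these 5. At 36 hpf 1 of the 5 tested rose (amy2al2) and 1 fell (ptf1a), and 6.37% of 9889 genes were called (1.93% higher and 4.44% lower). The groups were apart in 29.3% of genes and in these 2 members. Between 24 and 36 hpf none of 4 tested genes was called in MP, where 1 of them (ptf1a) had an unadjusted p under 0.05 and 21.3% of genes were called (10.3% higher and 11% lower at 36 hpf). The groups were apart in ptf1a and in 48.4% of genes. In MO 1 of 5 was called (amy2al2, lower and without overlap), where 25.1% of genes were called, 13.3% lower, and 39.2% did not overlap. For the interaction 1 of 5 was called (amy2al2), beside 1.55% of genes, 0.904% in the negative direction. In both MO to MP comparisons and the interaction, amy2al2 entered the test only through its MO arrays, where it is high. Its calls there could hardly have gone the other way and are no evidence beside the shares of all genes. The genes were selected with these results known, and the counts are a description.

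The order of group means was MO at 24 hpf, MO at 36 hpf, MP at 36 hpf and MP at 24 hpf in amy2al2, ctrb1, ela3l and prss1, from high to low. Neighbours in that order did not overlap in amy2al2 (although neither MP group was well above background), whereas in the 3 protease genes each pair of neighbours overlapped. For ptf1a the order was MP at 36 hpf, MP at 24 hpf, MO at 36 hpf and MO at 24 hpf, and only the 2 MO groups overlapped.

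Other pancreatic enzyme genes were taken as a list of 29, of which 16 had a probe and 12 were tested at 24 hpf. Of these, 5 rose, none fell and 7 did not pass, with a median log2 change of 1.06 beside 0.01 over all genes tested. Those that rose included ctrl (4.24, SE 0.87, adjusted p = 0.00394), cel.2, a bile salt activated lipase gene (2.62, SE 0.62, adjusted p = 0.00821), and the serine protease genes prss60.2 (2.09, SE 0.22, adjusted p = 0.000114) and prss60.1 (1.79, SE 0.17, adjusted p = 6.83e-05). The cel.2 probe was well above background on 3 MO arrays but on only 1 of 3 MP arrays. It entered the test through its MO arrays, and the size of its change rests on dim MP spots. Counted in either direction, the share called, 5 of 12, was not above the 48.3% of all genes tested. All 5 were higher, where 24.3% of all genes tested were higher and 24% lower. Marker lists of other tissues also held more higher than lower genes at 24 hpf. In the yolk syncytial layer list 4 of 5 rose and 1 fell (median log2 change 1.14), in the hatching gland list 4 of 5 rose and none fell (0.90), and in the list of myeloid and mast cells 6 of 9 rose and 1 fell (0.93). The summed normalized level at 24 hpf was 119 to 138 in MO and 55.4 to 70.1 in MP for the yolk syncytial layer, 53.0 to 64.8 and 34.5 to 40.8 for the hatching gland, and 16.1 to 17.6 and 6.69 to 7.53 for myeloid and mast cells. The brightest genes of a list contribute most to its sum, so these sums do not stand for each list as a whole. The part of these tissues in the enzyme values was not tested. At 36 hpf none of the 12 pancreatic enzyme genes tested passed by limma, where 6.37% of all genes were called. Of these 12, 3 had an unadjusted p under 0.05, and the median was 0.52 beside 0.03. Between 24 and 36 hpf 4 of 12 fell and none rose in MP, among them prss60.1 (-2.45) and the carboxypeptidase gene cpb1 (-1.23), beside 11% lower and 10.3% higher over all genes. In MO 5 of 12 fell and 1 rose over the same interval, beside 13.3% and 11.8% of all genes.

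Among 24 listed regulators of pancreas development, 20 were tested at 24 hpf, where 13 rose and 3 fell with a median log2 change of 0.79, beside 24.3% higher and 24% lower over all genes. The gene bhlha15, which encodes the acinar cell factor Mist1, went from -5.74 ± 0.81 in MP to -4.17 ± 0.12 in MO (SD, n = 3), a rise of 1.56 (SE 0.36, adjusted p = 0.00655). At 36 hpf bhlha15 was well above background on 1 MO array and on no MP array. The endoderm factor genes hnf4a (1.71, SE 0.34, adjusted p = 0.00328), gata5 (1.56, SE 0.10, adjusted p = 7.73e-06) and gata4 (1.54, SE 0.22, adjusted p = 0.000631) rose as well. At 36 hpf 2 of 18 fell, insm1a and onecut1, and none rose, beside 4.44% lower and 1.93% higher over all genes.

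Endocrine pancreas genes were mixed, with 2 of 10 higher and 5 lower at 24 hpf, beside 24.3% and 24% of all genes. The insulin gene ins fell by 1.12 (SE 0.13, adjusted p = 0.000215) and the somatostatin gene sst1.1 by 1.58 (SE 0.16, adjusted p = 8.97e-05), whereas insb, a second insulin gene, rose by 1.62 (SE 0.16, adjusted p = 7.65e-05). The ghrelin gene ghrl, counted among the 5 lower, was not well above background in MO. It entered the test only through its MP arrays, where it is high, and the size of its change rests on dim MO spots. The ratio of its MP mean to the detection level was 2.04-fold, which is not a strict lower limit. At 36 hpf 1 of 9 was called, neurod1, which fell by 0.74 (SE 0.18, adjusted p = 0.0497), where 4.44% of all genes were lower.

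A list of 15 genes, of which 12 had a probe and were tested, covered the other ptf1a domains, inhibitory neurons and their progenitors in hindbrain and retina. At 24 hpf 7 of 12 fell and 3 rose (pax2a, tfap2a and lbx1b), with a median log2 change of -0.75, beside 24% lower and 24.3% higher over all genes. The genes for GABA synthesis gad1b (-2.36, SE 0.15, adjusted p = 9.22e-06) and gad2 (-1.59, SE 0.16, adjusted p = 8.5e-05), for vesicular GABA and glycine loading slc32a1 (-1.54, SE 0.11, adjusted p = 1.33e-05) and for glycine uptake slc6a5 (-1.63, SE 0.15, adjusted p = 4.92e-05) fell. At 36 hpf 5 of 12 fell and none rose, beside 4.44% lower and 1.93% higher over all genes, with a median of -1.16. Among the called genes lhx1a (-1.87, SE 0.28, adjusted p = 0.0148 by limma) and gad1b (-1.68, SE 0.32, adjusted p = 0.0282) changed most. The change of gad2 was larger but did not pass (-2.32, SE 0.56, adjusted p = 0.0512). All 12 probes were well above background on all 12 arrays. Their summed normalized level, to which the brightest genes contribute most, was higher in MO at 24 hpf, at 19.0 to 20.7 against 17.7 to 18.5 in MP, and lower at 36 hpf, 17.0 to 21.0 against 27.1 to 35.0 at 36 hpf. Their part in the ptf1a value was not tested.

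**Figure D4:**
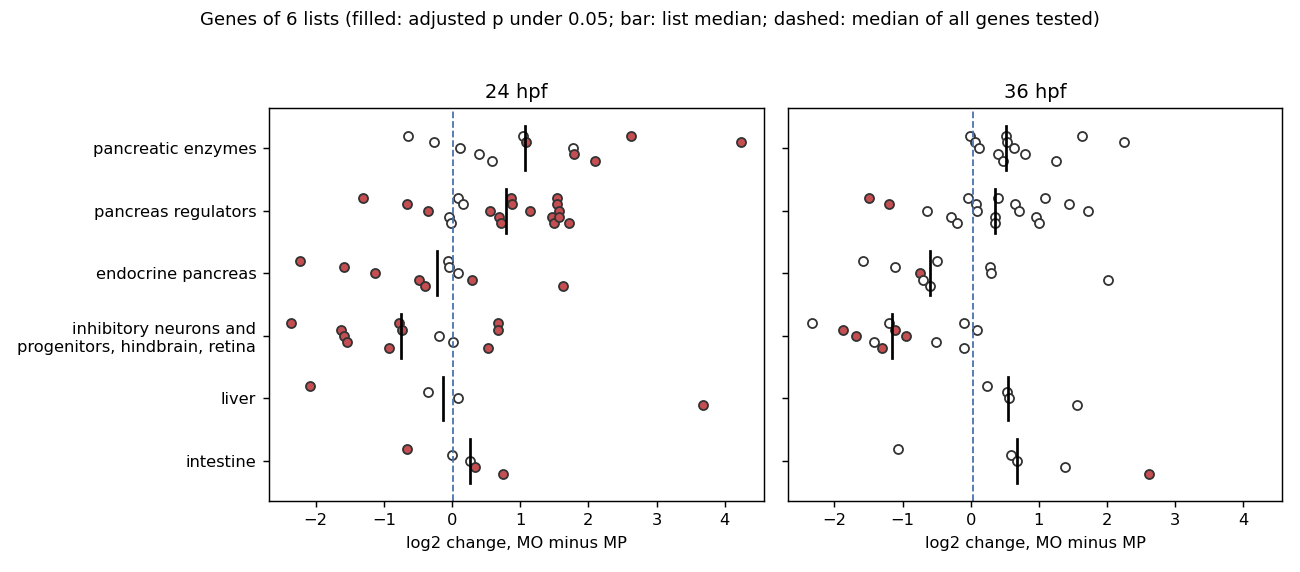
Log2 change of MO against MP (x axis) for the genes tested in 6 lists (y axis) at 24 hpf and 36 hpf, with filled points for an adjusted p under 0.05, bars at list medians and a dashed line at the median of all genes tested. At 24 hpf the medians are 1.06 for pancreatic enzymes and -0.75 for the inhibitory neuron list.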

How the data were processed

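Single-channel Agilent arrays of 12 embryo pools were analysed. The deposited scanner intensity values (gProcessedSignal, Agilent Feature Extraction 10.5.1.1) had been background-corrected by the software. The authors' deposited signal table was used as an alternative, and other deposited columns were spot flags. Intensities were raised to at least 0.05, spots with outlier flags were left out, and arrays were scaled by their medians over 19114 probes before log2. Of 43603 probes 16770 matched a transcript in the GRCz12tu RefSeq table, used for names and neighbours, and 15774 had a gene name. The highest probe per gene was tested with limma 3.58.1 in R 4.3.3 (trend, Benjamini-Hochberg) where well above background on all 3 arrays of 1 group. Comparisons within a time point used its 6 arrays, the others all 12. The number of arrays limits precision. Tests were checked on simulated data. All members, up to 4 called non-overlapping genes per list and the 3 most like genes were named. Members and lists were chosen with earlier results of these data known. Alternatives changed scaling, background, floor, filter, probe, test, blocks and single arrays. Blocks for scan session and random slide were added after seeing the data.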

Additional observations from a re-analysis of the deposited data

Results flagged for a closer look

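The fitted amy2al2 difference between MO and MP changed with time by -5.31 on the log2 scale (SE 0.74, adjusted p = 0.00512, limma with an interaction term). The fitted log2 change was 7.82 at 24 hpf and 2.52 at 36 hpf. The MP probe was not well above background at either time, so amy2al2 entered the test through its MO arrays alone. Against the detection level the MO ratios were 103-fold and 4.04-fold, and these are not strict lower limits. Neither the size nor the direction of the difference between the time points is fixed by the data. This result was picked out because the fitted effects at the 2 time points differed by the test of the difference itself. The fitted values stayed between -5.65 and -4.78 when any 1 of the 12 arrays was left out, with an adjusted p of at most 0.0209. The remaining MP values were at the background in each of these fits, so this range does not fix the size. With normexp correction the interaction was -2.68 (adjusted p = 0.000973), and with slide as a block it did not pass (adjusted p = 0.0632). Time was confounded with slide and scan session.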

How the results depend on the processing

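Of 5 members tested at 24 hpf, 5 were called, and 2 (amy2al2 and ptf1a) with the floor of 0.05 set after scaling or with the t-test of the study's methods (linear or log2 values). At 36 hpf 2 were called, but 1 (ptf1a) with scaling to the positive control spots, with normexp or with probes required to be well above background on all arrays, and 0 with the floor after scaling, either t-test, the slide block or the replicate block. Between the times, normexp gave 1 call in MP (ptf1a). Positive control scaling gave 5 in MO, beside 8934 calls over all genes at that setting. The main fit called 2565 of 10214 genes there. With so many genes called, the 5 calls say nothing particular about the members. Members with an interaction numbered 2 with positive control scaling, and 0 with the slide block or the stricter filter, which left amy2al2 untested. The cause of these shifts was not tested.

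Leaving out 1 array at a time gave 4 to 5 calls at 24 hpf, 0 to 2 at 36 hpf, 0 to 1 over time in MP and 1 to 2 in MO, and 1 throughout for the interaction. Calls at 36 hpf fell to 0 without MO replicate 3 or any 1 MP array. Positive control scaling turned ela3l (-0.41) and prss1 (-0.48) at 36 hpf and ptf1a over time in MO (-1.13). Over time in MP, ctrb1 ran from -0.22 to 1.39 and ela3l from -0.11 to 0.92, the lowest without MP replicate 1 at 36 hpf. The ptf1a interaction ran from -0.93 to 0.065, the latter without MO replicate 2 at 36 hpf.

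Deviations of arrays with the same replicate number correlated between -0.167 and -0.017 at 24 hpf and between -0.256 and 0.152 at 36 hpf, so the numbers were not taken to pair the arrays. With the replicate block the adjusted p at 36 hpf was 0.0503 for amy2al2 and 0.0517 for ptf1a, and the 24 hpf calls were 5. Over all genes, or over probes where all probes were tested, calls ranged from 2206 (one fit of all arrays) to 14579 (all probes tested) at 24 hpf. At 36 hpf they ranged from 2 (t-test on log2 values) to 1883 (one fit). Over time in MP they ranged from 660 (positive control scaling) to 6535 (all probes tested). Over time in MO they ranged from 1341 (without MO replicate 1 at 24 hpf) to 8934 (positive control scaling). For the interaction they ranged from 31 (slide block) to 1619 (without MO replicate 2 at 36 hpf). Dim spots limit amy2al2 at 36 hpf and cpa5.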
